A study of Mus musculus with 3 samples.

Results

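The HF array was set against the Control array in gastrocnemius, the large calf muscle, of male C57BL/6J mice. Of 18193 genes with a probe set of 1 gene symbol among the 45101 probe sets of the array, 6939 were described. Each gene was read from its brightest probe set (a set of short oligonucleotides that bind the same transcript), chosen by the mean log2 signal over all arrays. A gene was kept when that signal lay above the 75th percentile of the array, 389.1 on Control and 388.7 on HF. Both arrays passed for 6490 genes, Control alone for 230 and HF alone for 219. The other 11254 genes were too dim for this description. At the edge, Ctla2b was kept with 276 in Control and 389 in HF, whereas Rarb with 314 and 388.6 was not.

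Mice had received either a control diet with 10% of energy from fat and 70% from carbohydrate (Control) or a high-fat diet with 60% from fat and 20% from carbohydrate (HF). Protein gave 20% of energy in both diets, so that HF mice differed in carbohydrate as well as in fat. Feeding started at 6 weeks of age and lasted 15 weeks per the study's methods, whereas age is labelled as 21 months for every array. The HF + SFC group received the high-fat diet with 0.023% sodium ferrous citrate (SFC), an iron salt. Its array is quoted beside the others. All mice were of 1 wild-type strain, and no gene was altered. Each group was measured on 1 array that held a mix of all its samples, so 3 arrays were available. No value therefore has a replicate error, no statistical test was possible, and a ratio describes these pooled samples.

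Skeletal muscle burns both glucose and fatty acids, and a fat-rich diet shifts it towards fat through receptors such as the PPARs, which switch on genes for fatty acid transport and oxidation. Muscle also holds slow fibres, rich in mitochondria, and fast fibres, which rely more on glycolysis. Between the fibres lie capillaries, nerves, connective tissue and some fat cells, whose RNA enters a whole-muscle sample.

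The samples carried the RNA of fast skeletal muscle. Fast troponin T (Tnnt3) had a signal of 61584 in Control and 57775 in HF, fast myosin heavy chain Myh4 had 49066 and 44594, and muscle creatine kinase Ckm had 45640 and 37327. All 6 muscle markers were lower in HF, while markers of most other cells were higher. The summed signal of the 6 muscle markers was 299634 in Control and 268670 in HF. The 5 measured of 7 adipocyte markers were all higher and summed to 22938 and 32800. Of these sums Fabp4, which capillary cells also express, gave 21626 and 26497, and Adipoq gave 901 and 4637. The 6 leukocyte markers were all higher (2147 and 2723), but only 2 of them lay above the 75th percentile and the others were dim. The 5 fibroblast markers were all higher as well (22546 and 25986). Of 4 endothelial markers, 2 were higher (3238 and 3158). Smooth muscle summed to 11772 and 13243, Schwann cell to 4926 and 5988, and erythroid markers to 143 and 165, with Hba-a1 at 1.47 and 4.58. The liver markers Alb (55.3 and 100.9) and Apoa1 (6.54 and 6.25) were dim. In bulk muscle, more cells of a type and more RNA per cell cannot be told apart. For beta-actin, the signal of control probes near the 3' end over that near the 5' end, which climbs as RNA degrades, was 1.09 in Control and 1.52 in HF, and for Gapdh it was 0.842 and 0.832. The part of these differences in the results below was not tested.

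Most genes had nearly the same signal on both arrays. Of the 6939 genes, 50.5% lay within 1.1-fold and 78.2% within 1.2-fold of Control. The median log2 ratio of HF to Control was -0.03, with quartiles of -0.16 and 0.11. In all, 3047 genes were higher and 3891 lower. HF exceeded Control by 1.5-fold or more for 128 genes, 1.84% of those described, and lay below it by as much for 97 genes, 1.4%. Past 2-fold were 31 higher and 8 lower genes. With the arrays centred on their medians the counts were 92 higher and 162 lower, so that the balance of higher and lower genes depends on the scaling. After subtraction of a running median over signal they were 151 and 79. Of the 128 genes, 54 passed the signal filter on the HF array alone, and of the 97 genes, 40 passed it on Control alone, which required them to differ. The remaining 74 and 57 lay above it on both arrays. Any of the 6939 genes with a signal below the percentile of 1 array passed the filter on the other array alone.

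**Figure D1:**
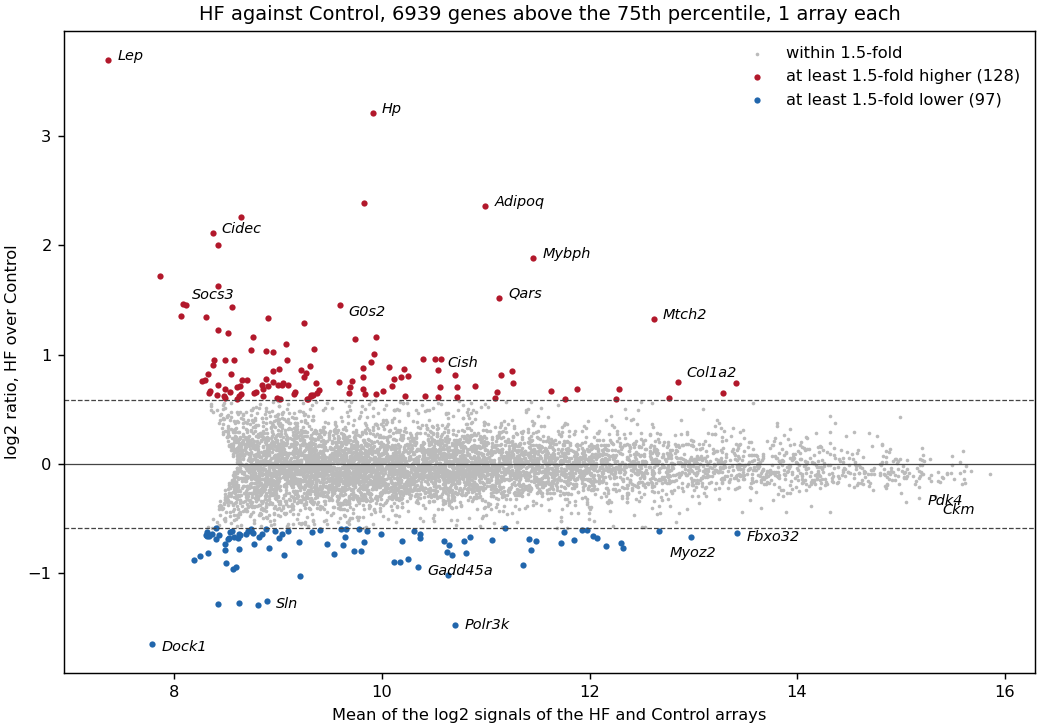
Log2 ratio of HF to Control (vertical) against the mean log2 signal of both arrays (horizontal) for 6939 genes, 1 array each. Dashed lines mark 1.5-fold, with 128 genes above in red and 97 below in blue. The scatter narrows with signal, and Lep and Hp stand highest.

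Dim genes scattered more. In the lowest quartile of signal among the 6939 genes 72 were at least 1.5-fold higher and 48 lower, with an SD of the log2 ratio of 0.35. In the highest quartile 10 were higher and 13 lower, with an SD of 0.18. Among the 11254 genes left out as dim, 26.4% lay 1.5-fold or more above Control and 18.9% as far below.

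The genes farthest above Control were led by fat-cell genes. Leptin (Lep), the hormone by which adipocytes report fat stores, had a signal of 45.8 on Control, 592 on HF and 387 on HF + SFC. The Control value lay below that array's median of 63.6, so the 12.9-fold ratio rests on a dim reading. Haptoglobin (Hp), which binds free haemoglobin and is made by liver and adipocytes, had 317, 2940 and 1945, a 9.29-fold ratio. Adiponectin (Adipoq), another hormone of adipocytes, had 901, 4637 and 2915. Cidec, a coat protein that enlarges lipid droplets in fat cells, had 159, 689 and 432, and gamma-synuclein (Sncg), abundant in adipocytes and sensory neurons, had 195, 601 and 422. All 5 were highest on the HF array, lowest on Control and in between on HF + SFC. None of them had a second probe set. Adipoq alone lay above the signal filter on both arrays. Lep, Hp, Cidec and Sncg passed it on HF alone, which required them to be higher.

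The RefSeq promoter window of Lep is shown as that of the gene with the highest ratio. It runs from 250 bases before to 50 after the start in build GRCm38.p6, 5' to 3'. Capitals mark TTGCGCAA, a palindrome of the kind that C/EBP factors of adipocytes bind, which begins at base 196 of the 300. It was searched on both strands after the values were seen, and 60 of 32851 windows in the table hold it (0.183%).
Lep (chr6:29059971-29060270, plus strand): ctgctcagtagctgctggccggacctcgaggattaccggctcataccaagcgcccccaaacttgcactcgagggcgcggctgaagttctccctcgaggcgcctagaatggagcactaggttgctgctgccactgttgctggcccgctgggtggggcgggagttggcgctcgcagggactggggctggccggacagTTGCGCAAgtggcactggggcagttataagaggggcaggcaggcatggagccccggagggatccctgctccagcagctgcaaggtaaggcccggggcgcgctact

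The adipocyte list held 25 genes, of which 22 were on the array and 11 were bright enough. Of these 11 genes, 10 were higher in HF and 5 at least 1.5-fold higher (1.84% of all genes described were), with a median log2 ratio of 0.40 against -0.03 over all. Lep, Cidec, Sncg and Adig passed the signal filter on HF alone, which required them to be higher. Over the 7 adipocyte genes above it on both arrays, of which Adipoq alone was past 1.5-fold, the median was 0.17. Adig, an adipocyte protein, had 330 on Control, 676 on HF and 486 on HF + SFC. The lowest was Aqp7, a glycerol channel, with 577, 574 and 573. Stearoyl-CoA desaturase Scd1 had 4706 in Control and 6231 in HF, and the fatty acid carrier Fabp4 had 21626 and 26497. The brighter Plin4, a droplet coat protein, and Car3, a carbonic anhydrase also abundant in muscle, had log2 ratios of 0.17 and 0.12.

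The remaining genes of the highest 15 have varied roles. Myosin-binding protein H (Mybph), a thick-filament protein of fast fibres, had 1460 on Control, 5407 on HF and 8145 on HF + SFC, and was higher still with iron. Cysteine dioxygenase (Cdo1), the first enzyme of cysteine breakdown, had 171, 685 and 377. Cd1d1, which presents lipid antigens to natural killer T cells, had 128, 421 and 285, and its dim second probe set had 108 and 378 in Control and HF. Npr3, the clearance receptor for natriuretic peptides, had 229, 621 and 398, and its 2 dim probe sets were 1.28 and 0.76 higher on the log2 scale. G0s2, an inhibitor of adipose triglyceride lipase, had 466, 1276 and 1368. BC048679 (398, 2086 and 1775), Tmem45b (182, 871 and 517) and the small GTPase Rab15 (167, 459 and 420) each had 1 probe set. All but Mybph and G0s2 were highest on the HF array. Cdo1, Cd1d1, Npr3, Tmem45b and Rab15 passed the signal filter on HF alone, which required them to be higher.

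Glutaminyl-tRNA synthetase (Qars) was among the highest only by its brightest probe set. That probe set had 1323 on Control, 3794 on HF and 2975 on HF + SFC. The other bright probe sets of Qars had 2315 and 1967 and 1510 and 1242 in Control and HF, both lower in HF. In the list of cytosolic aminoacyl-tRNA synthetases, which charge transfer RNA with amino acids, 3 of 19 genes were higher and the median was -0.14. Its lowest gene was Cars, for cysteine, with 735 in Control and 508 in HF.

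**Figure D2:**
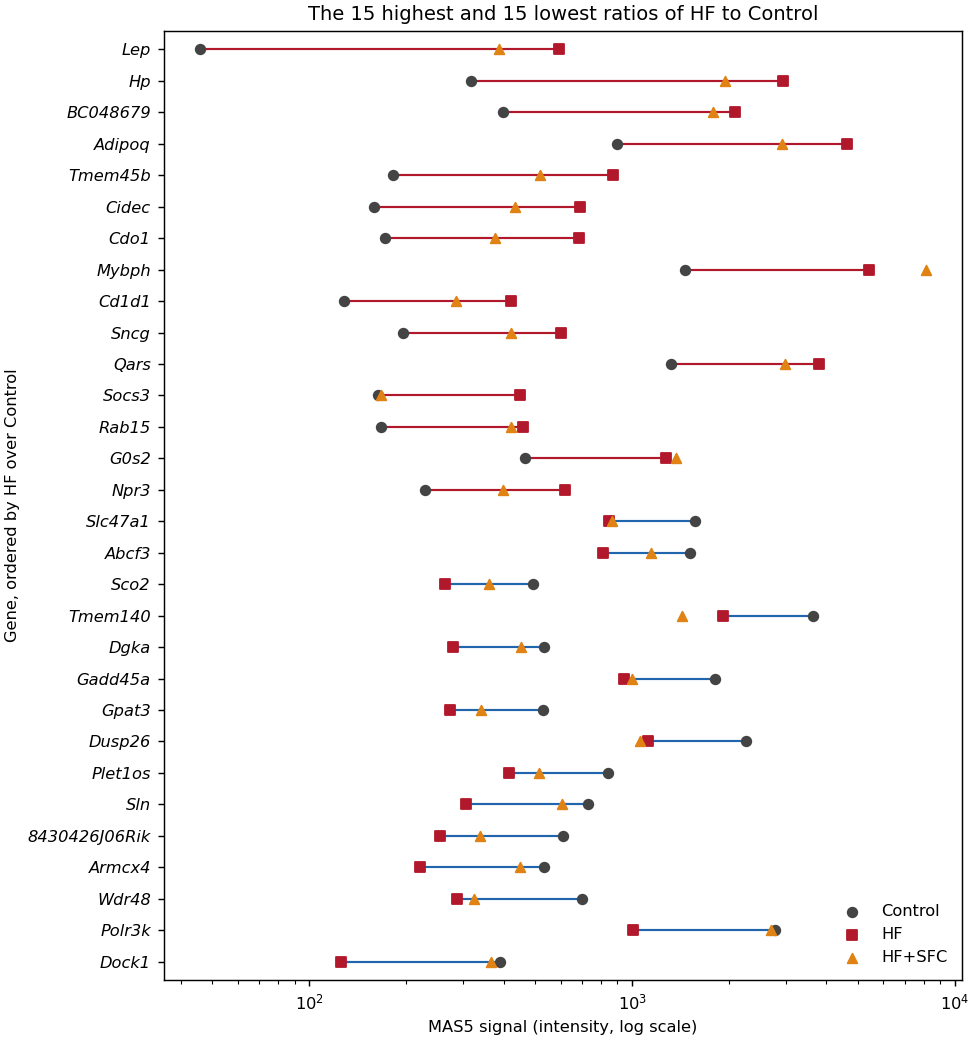
Signals (horizontal, log scale) of genes with the 15 highest or 15 lowest ratios of HF to Control on the Control (circle), HF (square) and HF + SFC (triangle) arrays, 1 array each. Lines join Control and HF. The triangles of Socs3, Polr3k and Dock1 lie near Control, and those of Gadd45a, Dusp26 and Slc47a1 near HF.

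The feedback inhibitors of cytokine signals Socs3, Cish and Socs2 were higher in HF, and near or below Control in HF + SFC. Socs3, an inhibitor of JAK-STAT, leptin and insulin signalling, had 163 on Control, 449 on HF and 167 on HF + SFC. Its 2 dim probe sets had log2 ratios of 1.55 and 1.31. Cish, a STAT5 target that damps cytokine and growth hormone signals, had 1107, 2008 and 638, and had 1 probe set. HF was 2.75-fold and 1.81-fold above Control for these genes, of which Socs3 passed the signal filter on HF alone. Socs2, another STAT5 target, followed with 968, 1429 and 684. Socs5 (816, 918 and 1021), Socs6 (1302, 1670 and 1429) and Socs7 (4352, 4909 and 5064) were above Control on both high-fat arrays, and Socs4 had 623, 651 and 598. The receptor side was lower or little different, with Ghr, the growth hormone receptor, at 15473 and 14541, Jak2 at 1718 and 1435, and Stat5b at 6217 and 4993. Igf1, a growth hormone target, had 1797 and 1720. The lowest gene was Stat5a with 480 and 366. Of the 17 genes of this list above the filter 9 were higher, with a median of 0.06 (-0.02 with the arrays centred on their medians).

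The promoter windows of Socs3 and Cish are shown because these genes were the 2 of their list past 1.5-fold. Capitals mark TTCNNNGAA, the palindrome that STAT proteins bind, searched on both strands after the values were seen. It begins at base 97 in Socs3 and at bases 251 and 262 in Cish, and 8.30% of all windows hold it. Among windows of the 15 highest genes, 11 of which matched the table with 15 windows, 2 hold it (Rab15 and Socs3). Among the 16 windows of 12 matched genes of the 15 lowest, 1 does.
Socs3 (chr11:117969317-117969616, minus strand): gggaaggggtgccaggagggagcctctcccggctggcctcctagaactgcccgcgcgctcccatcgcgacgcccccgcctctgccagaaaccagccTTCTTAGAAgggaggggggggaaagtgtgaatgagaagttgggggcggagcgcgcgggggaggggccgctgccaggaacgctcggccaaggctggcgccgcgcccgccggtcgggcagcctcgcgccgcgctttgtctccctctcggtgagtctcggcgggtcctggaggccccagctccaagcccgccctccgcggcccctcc
Cish (chr9:107296409-107296708, plus strand): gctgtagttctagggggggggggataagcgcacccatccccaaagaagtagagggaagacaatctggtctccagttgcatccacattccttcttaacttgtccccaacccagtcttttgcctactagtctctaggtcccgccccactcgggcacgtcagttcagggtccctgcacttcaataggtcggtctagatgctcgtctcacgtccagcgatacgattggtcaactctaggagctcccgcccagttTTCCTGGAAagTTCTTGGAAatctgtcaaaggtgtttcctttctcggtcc
Of the motifs listed for all named genes, the E-box CACGTG was in 3 of the 16 windows of the lowest genes (Armcx4, Dgka and Sco2) and in 0 of 15 of the highest, and in 7.15% of all windows. The D-box TTANGTAA (2.32% of all windows), the DR1 element of nuclear receptors (0.0396%), the palindromic glucocorticoid element (0.0487%) and the sterol element TCACNCCAC (1.24%) were in 0 of the windows of either set. These matches are letters in short windows and say nothing of binding.

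Among the 15 lowest ratios was that of a gene listed under both calcium handling and slow fibres. Of 27 genes of calcium handling in the sarcoplasmic reticulum 7 were higher, with a median of -0.07. In that list 1 gene was at least 1.5-fold lower and 1 higher, where 1.4% and 1.84% of all genes described were. Sarcolipin (Sln), a small inhibitor of the calcium pump of the sarcoplasmic reticulum, had 732 on Control, 307 on HF and 606 on HF + SFC. HF was 2.38-fold lower than Control, and a second probe set was dim on both arrays (6.31 and 8.32). Slow fibre genes were lower as a group. Of 16 listed genes 14 were bright enough, and 11 of these were lower, with a median of -0.44 and 4 at least 1.5-fold lower, where 1.4% of all genes described were. Sln passed the filter on Control alone, and over the 13 genes above it on both arrays the median was -0.44. Myoz2, a calcineurin-binding protein of the slow Z-disc, had 10173, 6409 and 7006. Slow tropomyosin Tpm3 had 8056, 5274 and 6826, and its other bright probe sets had 6098 and 4662, and 994 and 1076, in Control and HF. Ankrd2, a stretch-responsive protein of slow fibres, had 4971, 3284 and 3465.

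Further contractile proteins of slow fibres were lower in HF within 1.5-fold. Slow myosin heavy chain Myh7 had 8784 in Control and 6099 in HF, slow troponin C (Tnnc1) had 7094 and 4754, slow troponin T (Tnnt1) had 8717 and 6403, and the light chains Myl2 and Myl3 had 17739 and 13121, and 23834 and 17568. The slow calcium pump Atp2a2 had 13395 and 10674, and slow troponin I (Tnni1) 4078 and 3778. The exceptions were Fhl1 (29019 and 31970), Csrp3 (5432 and 5785) and the slow calsequestrin Casq2, which binds calcium in the reticulum and was 1.54-fold higher (965 on Control, 1486 on HF and 1181 on HF + SFC). On the HF + SFC array the median of the list over the same Control array was -0.07. Tnnt1 (9130), Atp2a2 (14087) and Tnni1 (5109) were above Control on that array, while Myh7 (8490) and Tnnc1 (7059) were slightly below.

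Fast fibre genes were slightly lower. All 19 genes measured were lower in HF, with a median of -0.12, but the median of their second brightest probe sets was 0.13. The range ran from Tnnc2, fast troponin C, with 36089 in Control and 30006 in HF, to Myh1, the IIx myosin, with 37356 and 37131. The list of muscle fibre identity had a median of -0.14 with 14 of 15 genes lower, and after quantile normalization, which makes the distribution of each array the same, it was -0.07. Its exception was nebulin (Neb) with 31215 and 32290. The embryonic and stretch-related genes had Ankrd1, a protein induced by muscle strain, at 408 on Control, 683 on HF and 711 on HF + SFC, and cardiac actin Actc1 at 10525, 10088 and 12507.

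Genes of muscle wasting were lower. Atrogin-1 (Fbxo32), a ubiquitin ligase of muscle atrophy, had 13711 on Control, 8834 on HF and 9315 on HF + SFC, a 1.55-fold lower signal in HF. Its other probe sets had 10721 and 7162, and 6309 and 3947. Gadd45a, a stress gene induced by denervation and fasting, had 1812, 941 and 999. Smad3, the effector of myostatin signals, had 4816, 3170 and 3245. Follistatin (Fst), which blocks myostatin, was 1.77-fold higher with 241, 427 and 397. Fst passed the signal filter on HF alone, which required it to be higher. MuRF1 (Trim63) had 22109 and 19731 in Control and HF, the transcription factor Foxo3 1219 and 875, Klf15 1566 and 1114, and Foxo1 1427 and 1486. Of the 20 genes measured of this list 15 were lower, with a median of -0.19.

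The lists of insulin signalling and autophagy had medians near that of all genes. Of 22 insulin signalling genes 5 were higher, with a median of -0.07. Their highest was Socs3, and the lowest was the insulin receptor substrate Irs2 with 612 on Control, 440 on HF and 515 on HF + SFC. The median of 33 autophagy genes was 0.00. The kinase Ulk1, which starts autophagy, was the only one past 1.5-fold with 3453, 2154 and 2571, where 1.4% of all genes described were as far lower. Among lower genes in no list, chosen after their values were seen, Pik3ip1, an inhibitor of PI3 kinase, had 1272, 818 and 875. The arrestin-like Arrdc2 had 2084, 1194 and 1451, and the kinase Pim3 had 3649, 2113 and 2351.

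Several further genes of the lowest 15 have roles in signalling, lipid metabolism and transport. The phosphatase Dusp26 had 2254 on Control, 1119 on HF and 1054 on HF + SFC. Gpat3, which starts glycerolipid synthesis, had 528, 273 and 340, and diacylglycerol kinase alpha (Dgka) 534, 279 and 452. Sco2, a copper chaperone of cytochrome oxidase, had 493, 263 and 360. Slc47a1, an organic cation exporter, had 1569, 846 and 864, and Tmem140 had 3623, 1906 and 1424. Armcx4 (533, 220 and 448), 8430426J06Rik (611, 254 and 337), Plet1os (842, 415 and 516) and Abcf3 (1509, 812 and 1147) were each lowest in HF. Tmem140 and Dusp26 had their lowest signal in HF + SFC. Gpat3, Dgka, Sco2, Armcx4 and 8430426J06Rik passed the signal filter on Control alone, which required them to be lower.

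Other probe sets gave a different picture for 3 of the lowest genes. Dock1, which activates the GTPase Rac, had 390 in Control and 125 in HF, but its other probe set was dim and higher in HF (log2 ratio 0.62). Polr3k, a subunit of RNA polymerase III, had 2779, 1003 and 2697, whereas its other bright probe sets had log2 ratios of -0.07, 0.22 and 0.30. Wdr48, a partner of deubiquitinases, had 697 and 286, and its next probe set 484 and 344. Dock1 and Wdr48 passed the signal filter on Control alone, which required them to be lower.

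Probe sets of 1 gene gave different ratios for many genes. Another bright probe set existed for 2548 genes, and its log2 ratio differed from that of the brightest with an SD of 0.26. The correlation was 0.39 across genes, which share the same samples and are not independent, and the signs were the same for 62.0%. Of 29 higher genes with such a probe set, 25 were higher by it too and 12 were again past 1.5-fold. Of 24 lower genes, 23 were lower by it too and 7 were past 1.5-fold. The medians by the brightest and the next probe set were 0.74 and 0.42 for the higher genes and -0.70 and -0.39 for the lower. A single probe set existed for 52 higher and 42 lower genes, and dim others alone for 47 and 31. Besides Qars and Polr3k, Mtch2, a carrier-like protein of the outer mitochondrial membrane, differed between its brightest and next probe set, with log2 ratios of 1.33 and 0.15.

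**Figure D3:**
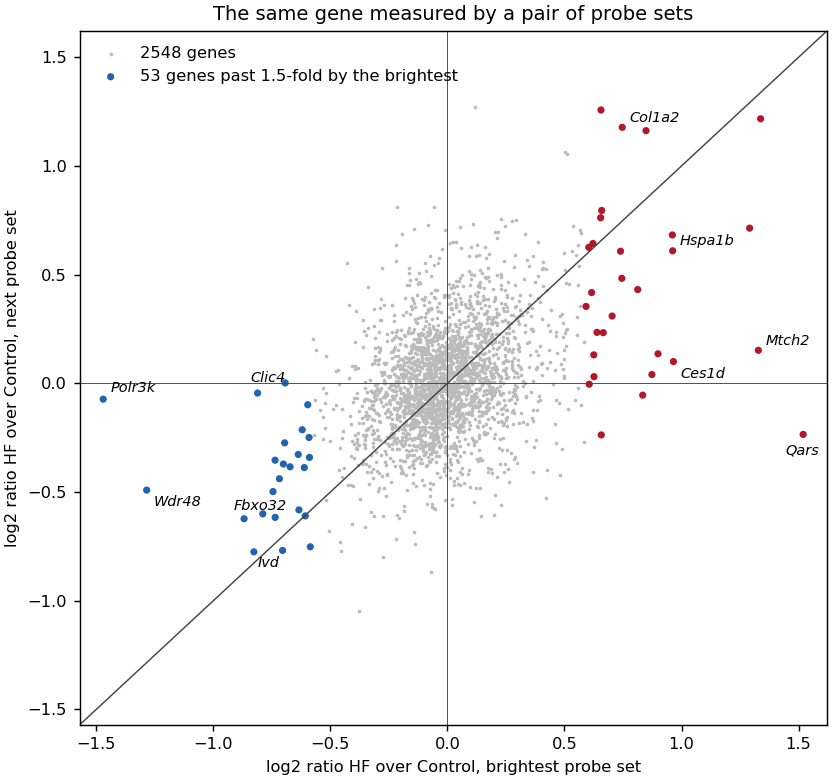
Log2 ratio of HF to Control by the brightest probe set of a gene (horizontal) and by its next probe set above the 75th percentile (vertical) for 2548 genes. The line marks equality, and 53 genes past 1.5-fold by the brightest are coloured red (higher) or blue (lower). Qars, Mtch2 and Polr3k lie far from the line, while Fbxo32 and Ivd lie near it.

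Collagen and connective tissue genes were higher in HF. Of 33 listed collagen genes and enzymes, 32 were on the array and 21 were bright enough. Of these, 18 were higher and 6 at least 1.5-fold higher, with a median of 0.24, where 1.84% of all genes described were. Col12a1, Lox and Col8a1 passed the signal filter on HF alone, which required them to be higher, and over the 18 genes above it on both arrays the median was 0.21. Col1a1 and Col1a2, the chains of type I collagen, had 968 on Control, 1883 on HF and 1335 on HF + SFC, and 5695, 9557 and 8840. Their next probe sets had 559 and 898, and 1614 and 3652, in Control and HF. Col12a1, a collagen that decorates type I fibrils, had 241, 553 and 458. Lox, which cross-links collagen, had 368, 664 and 563, Col5a2 had 594, 998 and 818, and Col8a1 had 236, 399 and 312. The lowest was P4ha1, a prolyl hydroxylase of collagen synthesis, with 805 and 649. Basement membrane Col4a1 (3356 and 3840) and Col4a2 (1829 and 1899) differed little.

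Small proteoglycans and tendon proteins were higher as well, with a list median of 0.42. Of 22 listed genes 16 were bright enough, 15 were higher and 5 at least 1.5-fold higher, where 1.84% of all genes described were. Osteoglycin (Ogn) had 1715 on Control, 3013 on HF and 2881 on HF + SFC, and tenomodulin (Tnmd), a membrane protein of tendon cells, had 850, 1458 and 1388. Cilp, a matrix protein of cartilage and tendon, had 1486, 2443 and 2667, asporin (Aspn) 817, 1296 and 1002, and lubricin (Prg4), which coats joint and tendon surfaces, 654, 1027 and 1112. By their next probe sets Ogn and Aspn were higher by less, with log2 ratios of 0.43 and 0.23. Tnmd, Cilp and Prg4 had a single probe set each. Fibromodulin (Fmod) had 5106 and 7527 in Control and HF, while decorin (Dcn), the brightest, had 17465 and 18183. The lowest was the tendon transcription factor Egr1 with 492 and 470. The fibroblast marker Pdgfra had 777 and 800.

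Other matrix glycoproteins had a median of 0.15 with 17 of 23 higher. Dermatopontin (Dpt), which binds decorin, had 2511 on Control, 3998 on HF and 3153 on HF + SFC, and osteonectin (Sparc), a collagen-binding protein, had 7975, 12554 and 10273. The lowest was laminin Lamb1 with 963 and 808. Matrix proteases and inhibitors had a median of 0.19 with 0 of 12 past 1.5-fold, from Serping1 (2750 and 4003) to Adamts5 (662 and 591).

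**Figure D4:**
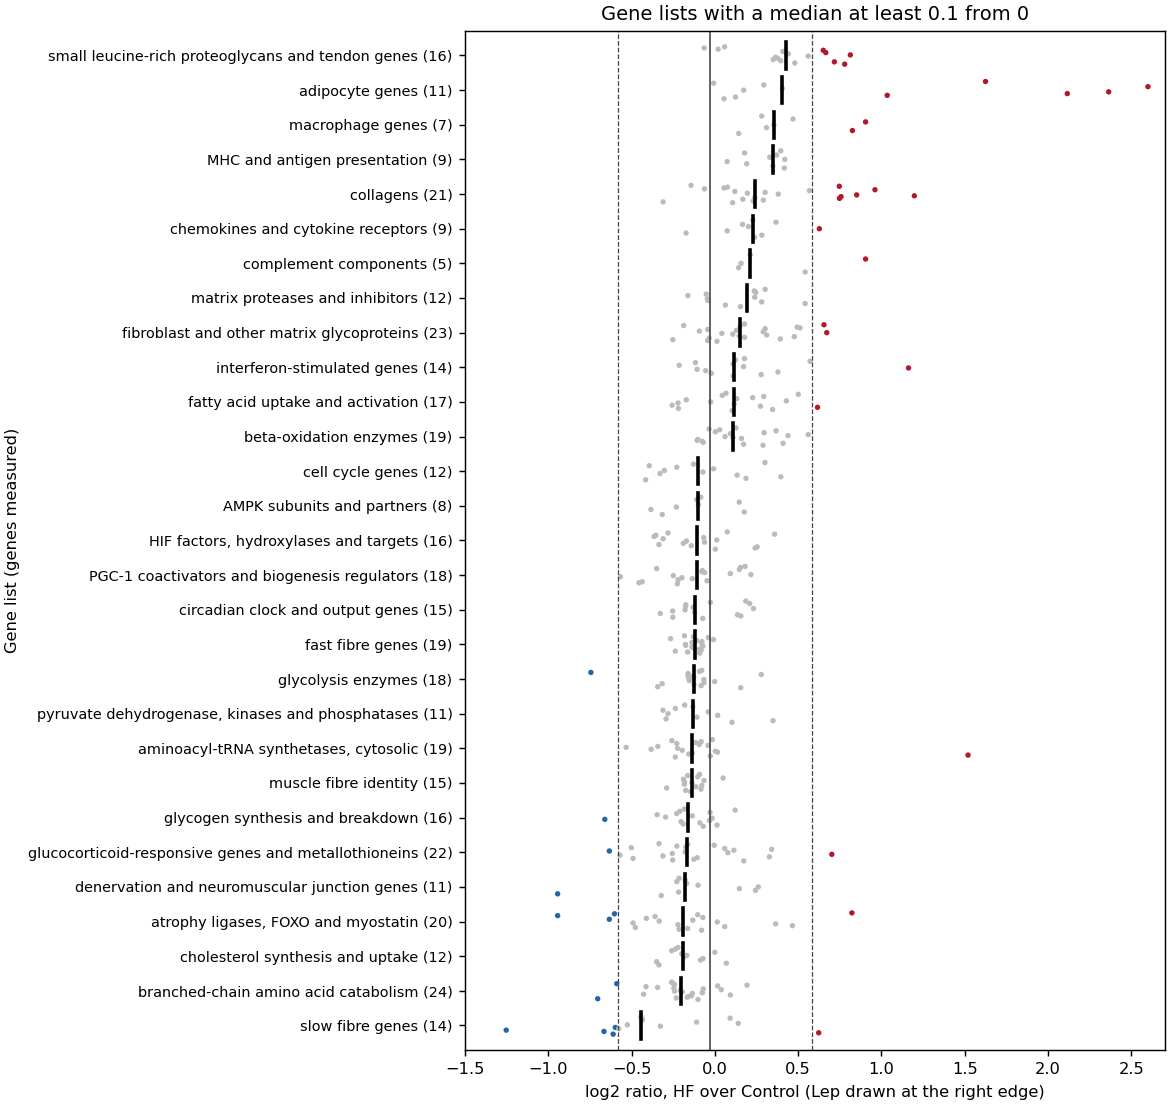
Log2 ratios of HF to Control (horizontal) of the genes of each list with 5 or more genes and a median at least 0.1 from 0 (vertical, number of genes in brackets). Bars are medians, the solid line is the median of -0.03 over 6939 genes, and red and blue points lie past 1.5-fold (dashed). Matrix, fat-cell and immune lists lie to the right and slow fibre genes farthest to the left.

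Immune genes were higher by small amounts. The 7 macrophage genes above the filter, of 31 listed, were all higher, with a median of 0.35. C1qb, Lgals3 and Cd163 passed it on HF alone, which required them to be higher, and over the 4 genes above it on both arrays the median was 0.29. C1qb, a chain of complement C1q made by macrophages, had 242 on Control, 453 on HF and 351 on HF + SFC, although its 2 dim probe sets had smaller log2 ratios of 0.16 and 0.49. Galectin-3 (Lgals3) had 280, 497 and 515, and the lowest was Lyz1 with 2795 and 3086. All 9 genes of antigen presentation were higher and 0 were past 1.5-fold, with a median of 0.35. The class II chain H2-Aa had 1525 and 2040 in Control and HF, B2m of class I 8385 and 10670, and the lowest was Psmb10 with 628 and 661. Complement components (5 genes) had a median of 0.21, from C1qb to Cd55, an inhibitor of complement, with 1747 and 1927. Of 14 interferon-stimulated genes 9 were higher, with a median of 0.12. Among them Ifi27l2a had 659, 1476 and 1252 on Control, HF and HF + SFC, and Bst2 had 494 and 426 in Control and HF. Chemokines and cytokine receptors had 8 of 9 genes higher, with a median of 0.23, from Ccl6 (286 and 442) to Il6st (3412 and 3026), but their second brightest probe sets had a median of -0.23. Ccl6 passed the filter on HF alone.

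Fatty acid oxidation genes were slightly higher, and 0 of 19 passed 1.5-fold. Of the 19 enzymes 14 were higher, with a median of 0.11 (0.03 with the arrays centred on their medians). Ech1, which handles double bonds of fatty acids, had 10056 on Control, 14826 on HF and 15764 on HF + SFC. Subunits of the trifunctional protein, Hadhb and Hadha, had 17559 and 23798, and 5803 and 6482, in Control and HF. The reductase Decr1 had 4756 and 6315, and the long-chain dehydrogenase Acadl 18470 and 22667. The lowest was Etfb, of the electron transfer flavoprotein, with 11649 and 10816. Uptake genes ran likewise, with 12 of 17 higher and a median of 0.11. Fabp5, a fatty acid carrier of skin, macrophages and endothelium, was at least 1.5-fold higher with 1367 on Control, 2095 on HF and 1771 on HF + SFC. The muscle carrier Fabp3 had 28049 and 37762 and the transporter Cd36 8640 and 10439. The thioesterase Acot13 was lowest with 6248 and 5228.

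PPAR target genes split. Of 24 measured, 15 were higher, with a median of 0.08, which was -0.003 with the arrays centred on their medians. At least 1.5-fold higher was 1 gene and lower were 3, where 1.84% and 1.4% of all genes described were. The targets higher in HF included 7 of the beta-oxidation enzymes and 8 other genes, among them Cyp4b1, a fatty acid hydroxylase, at 318 on Control, 490 on HF and 413 on HF + SFC. The 3 targets at least 1.5-fold lower were uncoupling protein Ucp3 (5431, 3409 and 3229), the mitochondrial thioesterase Acot2 (3642, 2241 and 2815) and the peroxisomal enzyme Ehhadh (465, 291 and 268), the last above the filter on Control alone, as Cyp4b1 was on HF alone. The next probe sets of Ucp3 and Acot2 were lower too (log2 ratios of -0.38 and -0.37). Pdk4, the kinase that blocks pyruvate oxidation and is induced by fasting, had 41206 and 33192, Angptl4 had 1300 and 1088, and Plin2 had 862 and 631. Of 17 lipid droplet genes 8 were higher, with a median of -0.04. Carboxylesterase Ces1d, a lipase of adipocytes and liver, had 1045, 2041 and 1881 by its brightest probe set and 842 and 902 in Control and HF by the next.

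Genes of amino acid and sugar metabolism were mostly lower. So were 56.1% of all genes described and all 19 fast fibre genes, whose median was -0.12. Of 24 genes of branched-chain amino acid breakdown 20 were lower, with a median of -0.20. Isovaleryl-CoA dehydrogenase (Ivd), of leucine breakdown, had 2261 on Control, 1388 on HF and 1658 on HF + SFC, and its next probe set had 1905 and 1118. Ppm1k, the phosphatase that activates the branched-chain keto acid dehydrogenase, had 988, 656 and 881, and the highest was Pccb, of propionyl-CoA carboxylase, with 1907 and 2179. Subunit Bckdhb had 1583 and 1247 in Control and HF, and the transaminase Bcat2 404 and 337. The median was -0.04 by second brightest probe sets. Of 18 glycolysis genes 16 were lower, with a median of -0.13. Pfkfb3, which makes the activator of phosphofructokinase, had 5914, 3529 and 3115, and the highest was the bisphosphatase Fbp2 with 3348 and 4060. Glycogen genes had a median of -0.16 with 14 of 16 lower, from the kinase Gsk3a (5260, 3326 and 4238) to Ppp1r3c, a targeting subunit of protein phosphatase 1 (28456 and 30949 in Control and HF). Cholesterol genes had 11 of 12 lower and a median of -0.19, from Fdft1, squalene synthase (5198 and 4077), to Hmgcs1 (2756 and 2889).

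**Figure D5:**
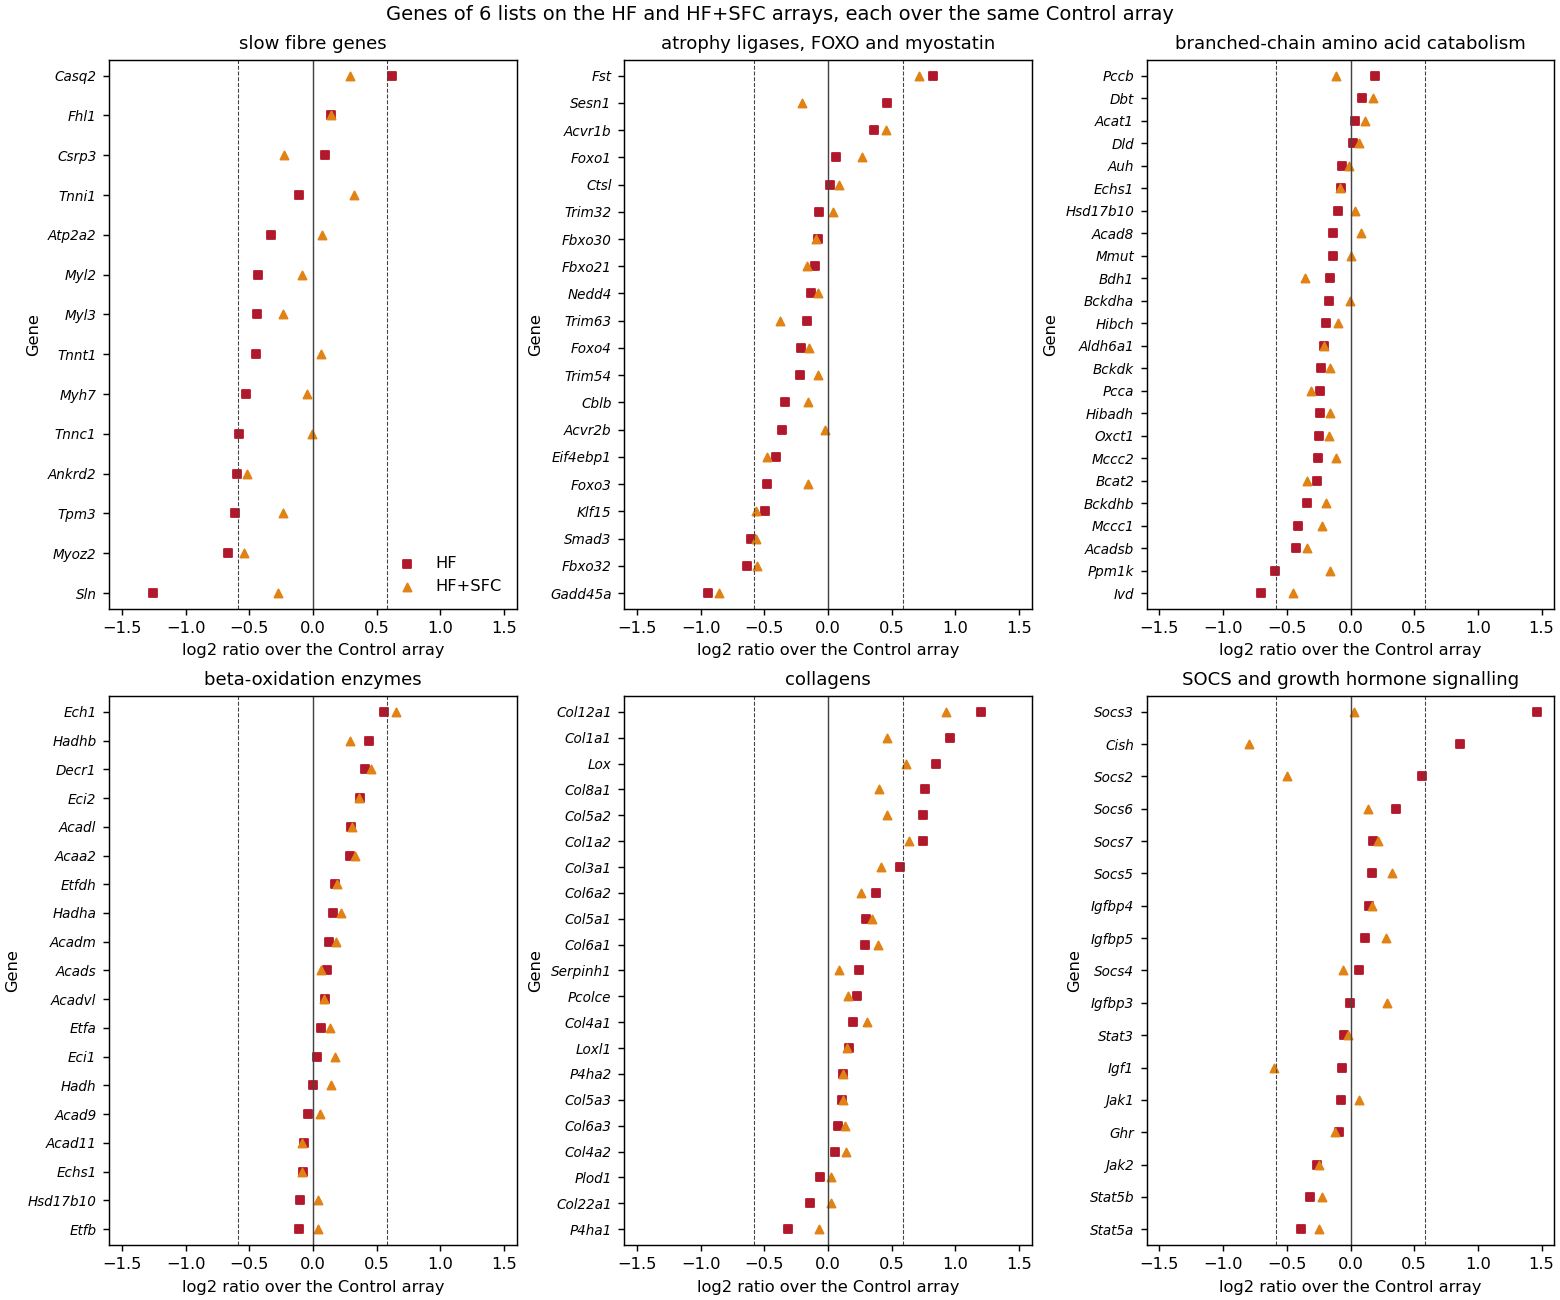
Log2 ratios over the Control array (horizontal) of the genes of 6 lists (vertical) on the HF (square) and HF + SFC (triangle) arrays, 1 array each, with dashed lines at 1.5-fold. Both ratios share the Control array. Slow fibre squares lie left of 0 for 11 of 14 genes, collagen squares right of 0 for 18 of 21, and the triangles of Socs3 and Cish lie near 0 and at -0.79.

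Mitochondrial lists had medians near that of all genes. The medians were -0.08 for 32 subunits of complex I (28 lower) and -0.06 for 31 of complexes II, III and ATP synthase (24 lower). They were -0.09 for 13 of cytochrome oxidase (10 lower) and -0.06 for 75 mitochondrial ribosomal proteins (49 lower). Of all genes described 56.1% were lower. In these lists 0 genes were past 1.5-fold. After subtraction of a running median over signal, the median of complexes II, III and ATP synthase was 0.002. Complex I ran from Ndufb7 (17425 in Control and 15113 in HF) to Ndufb6 (18215 and 20285), and cytochrome oxidase from its muscle subunit Cox6a2 (29526 and 25113) to Cox8a (1705 and 1777). The import factor Timm44 had 4697, 2901 and 4303 in Control, HF and HF + SFC, and its other probe sets were lower by less (-0.27 and -0.16 on the log2 scale). The carrier Slc25a25, which exchanges ATP-Mg for phosphate, had 1169, 674 and 615, and the related Slc25a24 had 373, 614 and 459. The deacetylase Sirt3 had 555, 375 and 521, the lowest of 18 regulators of mitochondrial biogenesis, whose median was -0.11. Slc25a24 passed the signal filter on HF alone and Sirt3 on Control alone.

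Heme, lipid and growth factor genes held a few further genes past 1.5-fold. Of all genes described, 1.84% were at least 1.5-fold higher and 1.4% as far lower. Of 15 heme synthesis genes 7 were higher, with a median of -0.01. In HF + SFC as well as in HF, Alad, the second enzyme of the pathway, was above Control (882 on Control, 1535 on HF and 1288 on HF + SFC), and so was coproporphyrinogen oxidase Cpox (533, 852 and 815). The dim other probe set of Alad was lower in HF (25.4 and 11.4), and of those of Cpox 1 was lower (305 in Control and 284 in HF) and the dimmest was higher. The mitochondrial transporter Abcb10 was lower by its brightest probe set, with 955, 631 and 746, but its next probe set had a log2 ratio of -0.098. Hacd2, which acts in fatty acid elongation, had 257, 497 and 347, and was 1 of 16 genes of fatty acid synthesis past 1.5-fold (median -0.09). Agpat2, of phosphatidic acid synthesis, had 240, 409 and 385, and with Gpat3 it was past 1.5-fold among 15 genes of glycerolipid synthesis (median -0.08). Hacd2 and Agpat2 passed the filter on HF alone, and Gpat3 on Control alone. Insulin-like growth factor 2 (Igf2) had 675, 443 and 496.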

How the data were processed

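RNA of gastrocnemius from each diet group was measured on 1 Affymetrix mouse array of pooled samples. The deposited values of the 45101 probe sets are linear intensities that the authors computed with MAS5, named with no version in the submitters' processing notes. No detection calls were used here. Probe sets were named through the platform annotation with symbols updated by gene ID from RefSeq GRCm38.p6; 34945 had 1 symbol, 932 several and 9160 none. Log2 ratios were taken without an offset. A gene past 1.5-fold, a threshold that the study's legends also use, was counted as called, and with 1 array per group no test was run. The 68 gene lists were written from textbook knowledge. The members, lists and alternatives were chosen with earlier results of these data known, so the counts are no independent support for patterns. Named genes were the 15 highest and 15 lowest ratios, and, in each list described, the genes past 1.5-fold and the highest and lowest; others are named as examples of their role. Steps were tested on simulated data. Computations ran in Python 3.11.15 with matplotlib 3.10.9, scipy 1.17.1, pandas 2.3.3 and numpy 2.4.6. Alternatives were another normalization (quantile, median centring, running median over 501 genes), an offset of 50, other probe set rules, other signal filters and a 2-fold threshold. The number of arrays limits the precision, and liver arrays were not used here.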

Additional observations from a re-analysis of the deposited data

How the results depend on the processing

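With 1 pooled sample per group, neither the spread between mice nor that between arrays is known, and signal over background limits the dim genes most. No paired analysis was possible because each group had 1 array. The counts of 128 higher and 97 lower genes became 53 and 26 by second brightest probe sets, 74 and 57 with the filter passed on both arrays, 973 and 616 with the filter at the median, and 31 and 8 at 2-fold. Centring on medians gave 162 lower genes, and 92 higher. Centring lowered every log2 ratio by the same amount, since the median signal was 67.4 on HF and 63.6 on Control. The remaining filters and thresholds count fewer or more genes by construction. Centring moved the medians of branched-chain amino acid catabolism to -0.28, of small proteoglycans and tendon genes to 0.34 and of complement components to 0.13. By second brightest probe sets these became -0.036 for branched-chain amino acids, 0.12 for complement and 0.45 for antigen presentation, and the sign turned for chemokines (-0.23), fast fibre genes (0.13), HIF factors (0.12) and AMPK subunits (0.029). Polr3k turned to 0.22 without probe sets that may bind several transcripts, and Qars to -0.23 by its second brightest. Over all these settings, 545 list medians stayed within the 95% order-statistic interval of the median over the genes of the list. Another 45 left it and 4 turned sign. In the smallest lists that interval is the full range of the genes, which a median can hardly leave. Genes of a list share the samples, so the interval does not measure the spread between mice. The slow fibre median ran from -0.53 to -0.39, the collagen median from 0.16 to 0.40 and the adipocyte median from 0.17 to 1.03.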

Other observations

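Lists of heat shock, immediate early and antioxidant genes had medians near that of all genes, with a few genes past 1.5-fold. Of all genes described, 1.84% were at least 1.5-fold higher and 1.4% as far lower. Glucocorticoid-responsive genes had a lower median. Of 25 heat shock genes 12 were higher, with a median of -0.001. Hspa1b, an inducible heat shock protein and the only one past 1.5-fold, had 1087 on Control, 2117 on HF and 1322 on HF + SFC, and its other bright probe sets were higher by 0.61 and 0.60 on the log2 scale. Metallothionein Mt2, which binds zinc and is induced by glucocorticoids, had 1326, 2157 and 1853, and with Fbxo32 it was past 1.5-fold among 22 glucocorticoid-responsive genes and metallothioneins, whose median was -0.17. Of these 22 genes 15 were lower. The phosphatase Dusp1 had 2977, 4787 and 5389 and was the only one of 19 immediate early genes past 1.5-fold (median 0.003). The extracellular superoxide dismutase Sod3 had 240, 465 and 279, while plasma glutathione peroxidase Gpx3 had 6501, 3951 and 5525 and the glutathione transferase Gstm1 had 4337, 2638 and 3655. The next probe set of Gstm1 was lower by less (-0.44). Sod3 passed the signal filter on HF alone, which required it to be higher. Of 31 genes of antioxidant defence 11 were higher, with a median of -0.08.

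Of the 225 genes past 1.5-fold, 160 were in none of the 68 lists. Some of these, chosen after their values were seen, encode secreted or enzyme proteins of adipose tissue and the acute phase. Lipopolysaccharide-binding protein (Lbp) had 289 on Control, 650 on HF and 553 on HF + SFC, the glycoprotein Lrg1 had 786, 1455 and 1116, and chemerin (Rarres2) had 374, 575 and 510. Nicotinamide N-methyltransferase (Nnmt) had 167, 427 and 371, and the amine oxidase Aoc3 had 346, 705 and 562. Lbp, Rarres2, Nnmt and Aoc3 passed the signal filter on HF alone, which required them to be higher. On the lower side, nicotinamide riboside kinase Nmrk2 had 6678, 3919 and 3993 and the scavenger receptor Stab2 had 1007, 634 and 727. Endothelial genes had a median of 0.01 over 25 genes, from Ednrb, an endothelin receptor (1161 in Control and 797 in HF), to Emcn (364 and 481).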
